A study of Mus musculus with 52 samples.

Results

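The enhancers that surround Dppa2, Dppa4 and Dppa5a, 3 developmental pluripotency associated genes of the mouse, were located in 2 sets of enhancers. The first set was defined in mouse embryonic stem cells (mESCs) and the second in epiblast-like cells (EpiLCs). The genes are 3 of 24263 in a table of mm10 gene intervals. Their regions were the rows of both enhancer tables whose centre lay within 100 kb of the transcription start site (TSS), which gave 13 of 25370 regions. Of these, 4 came from the 8794 mESC enhancers and 9 from the 16576 EpiLC enhancers. Each region was then sorted by whether it shared at least 1 bp with a region of the other set.

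The study immunoprecipitated chromatin of naive mESCs, kept in LIF with inhibitors of GSK3 and MEK1, and of EpiLCs, their counterpart on the way to the post-implantation epiblast. Its 52 libraries (43 of mESCs and 9 of EpiLCs) compared control cells named ABE with cK27R clones, in which canonical H3 is mutant at H3K27, with pK27R clones, in which every H3 is, with SUZ12 knockout cells, and with H3.3 knockout cells, either without add-back or given back wild-type histone (pK27WT). In the H3.3 libraries, pK27R names knockout clones given back the mutant histone. All libraries carried the same mixed strain background, and cK27R and pK27R were each represented by 2 clones. The antibodies were against H3K27me2, H3K27me3, H3K27ac, H3.3, Med1 of the Mediator complex and RNA polymerase II. The tables analysed here list regions without a value per library, so signal in control or mutant cells was not analysed here. The 2 enhancer sets were taken from separate earlier publications, and what differs between them in number, width or overlap cannot be told apart from their definitions.

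Dppa2 and Dppa4 encode small nuclear proteins with a SAP domain that bind DNA as a pair. In embryonic stem cells they are known to activate Dux and, through it, genes of the 2-cell embryo such as the Zscan4 cluster, and to hold developmental promoters in a poised state. Dppa5a, also known as Esg1, encodes an RNA-binding protein with a KH domain that is made in pluripotent cells and the germ line. Its neighbour Ooep encodes a KH-domain protein of the subcortical maternal complex of the egg. Enhancers are stretches of DNA outside or inside genes that bind transcription factors and p300 and carry H3K4me1 and H3K27ac when active.

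Short stretches of these regions, read from the GRCm38.p6 assembly (the same coordinates as mm10) on the plus strand, show the letters on which the sequence results below turn. Capitals mark exact matches to the motifs searched, on either strand, and all other bases are in lower case. At chr16:48304350-48304649, inside a region of both sets upstream of Dppa2, capitals mark 2 octamers of the POU factors. At chr16:48302224-48302343, in the part of the EpiLC region that the mESC region does not reach, they mark the single ESRRB match of the 13 regions.
Octamer pair upstream of Dppa2: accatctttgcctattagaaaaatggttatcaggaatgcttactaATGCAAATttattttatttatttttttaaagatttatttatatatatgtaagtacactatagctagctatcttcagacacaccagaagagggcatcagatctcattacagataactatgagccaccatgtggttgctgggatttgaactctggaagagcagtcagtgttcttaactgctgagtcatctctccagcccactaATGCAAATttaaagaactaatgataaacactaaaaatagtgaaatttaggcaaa
ESRRB match upstream of Dppa2: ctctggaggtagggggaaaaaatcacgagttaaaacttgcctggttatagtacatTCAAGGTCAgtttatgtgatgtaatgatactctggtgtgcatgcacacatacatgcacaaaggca
The next stretches are examples from EpiLC-only, shared and mESC-only regions. At chr16:48373690-48373989 lies the middle of the EpiLC-only region farthest from Dppa4, with a TAATCC match. At chr9:78374897-78375096, within an element upstream of Dppa5a that RefSeq records as an enhancer, capitals mark a SOX, an OTX-type and a KLF match. At chr9:78362744-78362863, downstream of Dppa5a, 2 overlapping KLF matches lie in both sets. At chr9:78419285-78419584 lies the middle of the mESC-only region, a stretch that starts in a coding exon of Ddx43 and runs into the next intron, with an E-box and a KLF match.
EpiLC-only region downstream of Dppa2: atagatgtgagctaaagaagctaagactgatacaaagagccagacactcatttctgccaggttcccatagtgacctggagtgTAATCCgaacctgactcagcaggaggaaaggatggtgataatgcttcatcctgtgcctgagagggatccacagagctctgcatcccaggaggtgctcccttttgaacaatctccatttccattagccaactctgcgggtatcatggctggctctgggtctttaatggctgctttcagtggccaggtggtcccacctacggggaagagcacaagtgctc
Upstream Dppa5a element: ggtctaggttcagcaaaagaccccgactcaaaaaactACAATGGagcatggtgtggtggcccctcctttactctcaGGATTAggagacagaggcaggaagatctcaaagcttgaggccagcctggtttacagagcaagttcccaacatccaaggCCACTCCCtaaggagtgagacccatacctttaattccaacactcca
Downstream Dppa5a KLF matches: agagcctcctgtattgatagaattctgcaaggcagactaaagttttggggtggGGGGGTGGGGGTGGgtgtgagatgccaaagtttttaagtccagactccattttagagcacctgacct
mESC-only region in Ddx43: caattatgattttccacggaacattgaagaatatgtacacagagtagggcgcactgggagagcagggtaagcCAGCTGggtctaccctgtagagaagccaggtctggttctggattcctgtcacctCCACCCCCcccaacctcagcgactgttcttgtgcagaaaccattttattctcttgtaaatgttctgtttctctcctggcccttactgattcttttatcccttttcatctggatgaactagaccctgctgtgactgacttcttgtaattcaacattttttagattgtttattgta

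All 3 genes had their TSS inside an enhancer of the mESC set and inside an enhancer of the EpiLC set. Over the whole gene table, 1.16% of TSSs (282 of 24263) lay inside an mESC enhancer, 14.0% (3400) inside an EpiLC enhancer and 0.622% (151) inside both. Of the 4 mESC regions near the 3 genes, 3 overlapped an EpiLC region, beside 42.9% of the whole mESC set. Of the 9 EpiLC regions, 4 overlapped an mESC region, beside 25.9% of the whole EpiLC set. With every region cut to 500 bp at its centre, none of the 13 overlapped the other set, beside 26.1% of all mESC and 14.1% of all EpiLC regions. By length, 23353 of the 24977 bp in the 4 mESC regions (93.5%) were shared with the EpiLC regions, which came to 45225 bp (51.6% shared). The members had been named with earlier results of these data known, so these shares describe the loci and carry no test.

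Dppa4 (chr16:48283735-48294292, plus strand, 10558 bp) and Dppa2 (chr16:48310274-48319513, plus strand, 9240 bp) follow each other on chromosome 16, with 26539 bp between their TSSs. Their windows held the same regions, 2 from mESCs and 7 from EpiLCs. Each had 1 other TSS of the gene table within 100 kb, that of its partner. Over all genes the median was 4 other TSSs and the lower quartile 1. The pair thus had 9 enhancer regions around it and no listed TSS but its own. Both mESC regions overlapped EpiLC regions (3 of the 7), so the 9 are not separate stretches of DNA.

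The Dppa4 TSS lay in an mESC region of 627 bp (chr16:48283386-48284012), whose centre was 36 bp from the TSS. Only 10 of the 24263 genes (0.0412%), Dppa4 included, had an mESC enhancer centred that close, and the median distance over all genes was 83590 bp. The EpiLC region at the same TSS (chr16:48280302-48285976) was 5675 bp long and contained the whole mESC region, which made up 11.0% of it. The EpiLC region reached 3433 bp upstream and 2241 bp downstream of the TSS, and the mESC region 349 bp and 277 bp. Both sets thus marked the Dppa4 promoter, the mESC set with a region slightly shorter than its median of 711 bp and the EpiLC set with one longer than its median of 1750 bp. The centres of these nested regions lay 560 bp apart.

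The mESC region at Dppa2 (chr16:48303362-48310938) was 7577 bp long, the 586th longest of the 8794 in its set. It began 6912 bp upstream of the TSS and ended 664 bp downstream of it. GENCODE M21 places the start of a longer Dppa2 transcript at -6366 bp from the gene-table TSS (negative is upstream) and another start 203 bp downstream, and both fell inside this region as well. The EpiLC set covered the same stretch with 2 regions, 1150 bp apart. The upstream one (chr16:48301852-48305176, 3325 bp) held the start of the longer transcript, and the downstream one (chr16:48306327-48313001, 6675 bp) held the gene-table TSS. They shared 1815 bp (54.6%) and 4612 bp (69.1%) of their length with the mESC region. Between them, the EpiLC regions covered 6427 bp (84.8%) of the mESC region.

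The 15981 bp between the end of Dppa4 and the gene-table TSS of Dppa2 were 43.3% covered by mESC enhancers and 45.5% by EpiLC enhancers. This stretch is a gap only by the gene table. The longer Dppa2 transcript starts inside it, at -6366 bp, and most of the covered bases of both sets lie within that transcript. The comparison took 4649 gaps between gene-table intervals, of 0.5 to 2 times this length. Of these, 28 (0.602%) were covered at least as far by mESC enhancers and 64 (1.38%) by EpiLC enhancers. The median gap had no coverage by either set. The gene-table intervals of the 2 genes were covered less. Of the Dppa4 interval, 2.63% lay in mESC and 21.2% in EpiLC enhancers, and of the Dppa2 interval 7.20% and 29.5%.

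**Figure D1:**
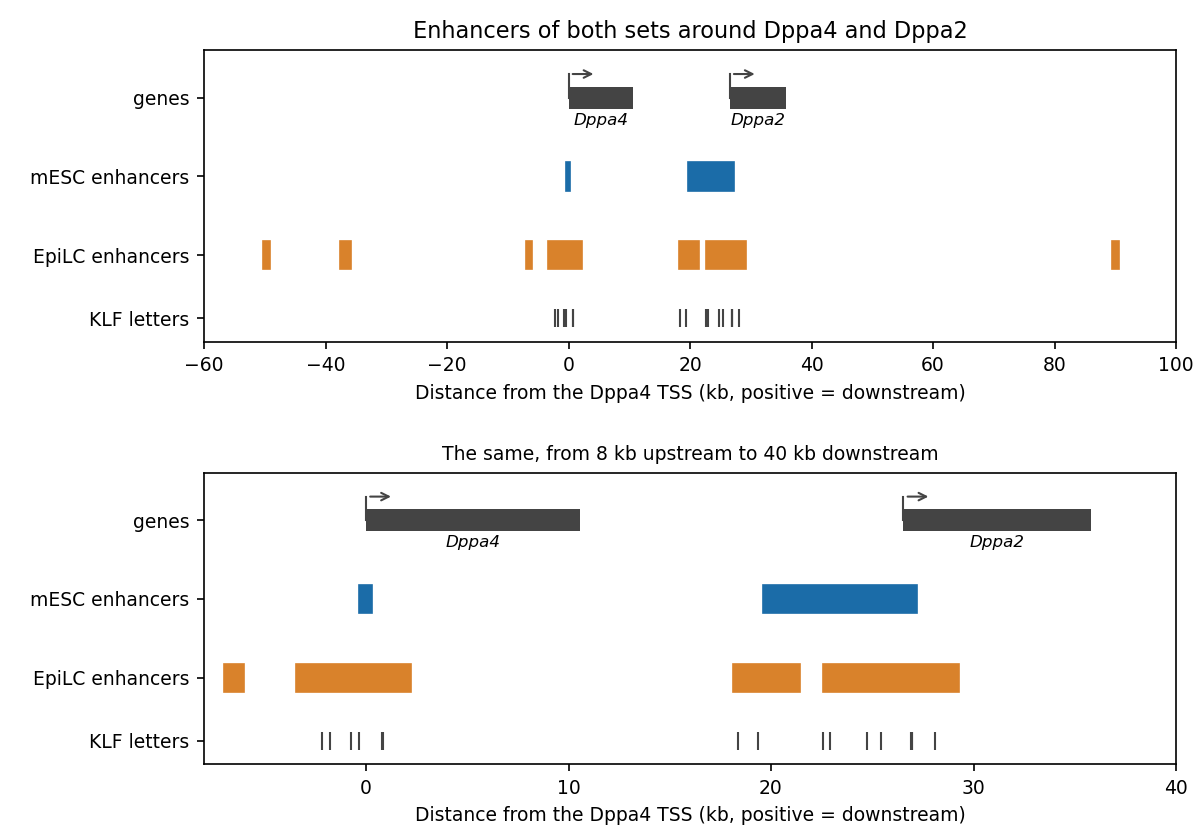
Enhancer regions and exact KLF letters around Dppa4 and Dppa2 against distance from the Dppa4 TSS in kb, over the window (top) and near the genes (bottom). Boxes are genes, mESC regions and EpiLC regions, arrows mark TSSs and their direction, and vertical lines are KLF matches inside the regions. The 2 mESC regions lie at the 2 TSSs, and 4 of the 7 EpiLC regions lie apart from them.

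The 4 EpiLC regions with no mESC partner were all intergenic and all short. They were centred 49.634 kb, 36.746 kb and 6.534 kb upstream of the Dppa4 TSS and 90.104 kb downstream of it, which is 63.565 kb downstream of Dppa2. Their lengths were 1150, 1725, 1000 and 1175 bp, each below the median EpiLC length. Dppa4 had the nearest listed TSS to the first 3 of them and Gm5485 to the last, at 38.577 kb. Just beyond the window lay an EpiLC region centred 112.552 kb downstream of Dppa2 and an mESC region of 13952 bp centred at 119.006 kb, which covers the TSS of Morc1, a gene needed to silence transposons in male germ cells.

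Among genes with their TSS in both sets, neighbours of the same kind were sought 1 to 50 kb away. Closer pairs, such as Top3a with Smcr8, were left out, and no share over all TSSs was computed for comparison. Of the 151 TSSs inside an enhancer of both sets, 9 had another of the 151 between 1 and 50 kb away. These were Dusp27 with Gpa33 (2562 bp apart), Uck2 with Mir6347 (4998 bp), Zfas1 and Znfx1 with Snord12 (2359 and 2278 bp), and Dppa4 with Dppa2. The distance between Dppa4 and Dppa2 was the longest of these 5. These genes were chosen for naming after their values were seen.

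Dppa5a (chr9:78367054-78368199, minus strand, 1146 bp) lay as a whole inside a single enhancer of each set. The mESC region (chr9:78359337-78375635) was 16299 bp long and extended 7436 bp upstream and 8862 bp downstream of the TSS. The EpiLC region (chr9:78357727-78381926) was 24200 bp long and extended 13727 bp upstream and 10472 bp downstream. It contained the mESC region entirely and went 1610 bp beyond it on the downstream side and 6291 bp on the upstream side, towards Ooep. It was the 15th longest of 16576 EpiLC enhancers, and 0.0905% of the set were at least as long.

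A gene wholly inside 1 enhancer of each set was uncommon. Of all intervals, 0.19% lay inside an mESC enhancer and 1.49% inside an EpiLC enhancer. Both held for 0.0453% of the gene table (11 genes) and for 0.0232% of the 21551 intervals of 1 kb or longer. The 5 genes of that length were Mcl1, an anti-apoptotic factor; Zfas1, a non-coding RNA; Dusp1, a MAP kinase phosphatase; Sox2, the pluripotency factor; and Dppa5a. The other 6 were shorter than 1 kb. Dppa5a had the shortest interval of these 5, and it had fewer EpiLC regions within 100 kb, 2 against 6 to 9 for the others.

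The mESC region of Dppa5a stood in the first block of rows of the mESC table, which runs in an order of its own. The table does not label this block, and its number of rows equals that of the super-enhancers in the publication from which the set was taken. The median length was 8667 bp in this block and 703 bp in the other 8563 rows. The Dppa5a region was 52nd in length within the block and 96th in the whole set. Of the block's regions, 80 (34.6%) lay wholly inside 1 EpiLC enhancer. Of the 96 mESC regions at least as long as that of Dppa5a, 3 did so, Dppa5a included. The Dppa2 region lay outside the block, where it was 461st in length, although 106 regions of the block were shorter than it.

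Ooep, whose TSS lay 10389 bp upstream of that of Dppa5a on the same strand, was treated differently by the sets. Its whole interval lay in the EpiLC region of Dppa5a, and its TSS lay in no mESC enhancer. The 8703 bp between Ooep and Dppa5a were 85.4% covered by mESC and 100% by EpiLC enhancers. Of 4007 gaps of like length, 11 (0.275%) reached the first value and 7 (0.175%) the second. On the other side, the 19908 bp between Dppa5a and Gsta2, a glutathione transferase gene, were 38.8% covered by mESC and 46.9% by EpiLC enhancers.

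The annotation of RefSeq holds 6 experimentally supported elements at Dppa5a and 0 at Dppa4 and Dppa2. It records an upstream region (chr9:78368336-78376479, 8144 bp) and a downstream region (chr9:78358933-78365818, 6886 bp), both as positive regulators of Dppa5a and Ooep in mouse embryonic stem cells. The upstream region lay 89.6% in the mESC and 100% in the EpiLC enhancer, and the downstream region 94.1% and 100%. Of the 2 subregions of the upstream element, the one near Dppa5a lay wholly in both sets. The far one (chr9:78373183-78376479) lay 74.4% in the mESC enhancer, whose upstream edge falls inside it. The 2 stretches recorded as enhancers (chr9:78368500-78370278 and chr9:78374046-78375410) lay wholly in both sets. Over the 1015 enhancer elements of RefSeq in the genome, 9.66% overlapped an mESC enhancer and 18.2% an EpiLC enhancer. The 1015 were not limited to elements recorded in stem cells, so these shares are not a like-for-like background.

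**Figure D2:**
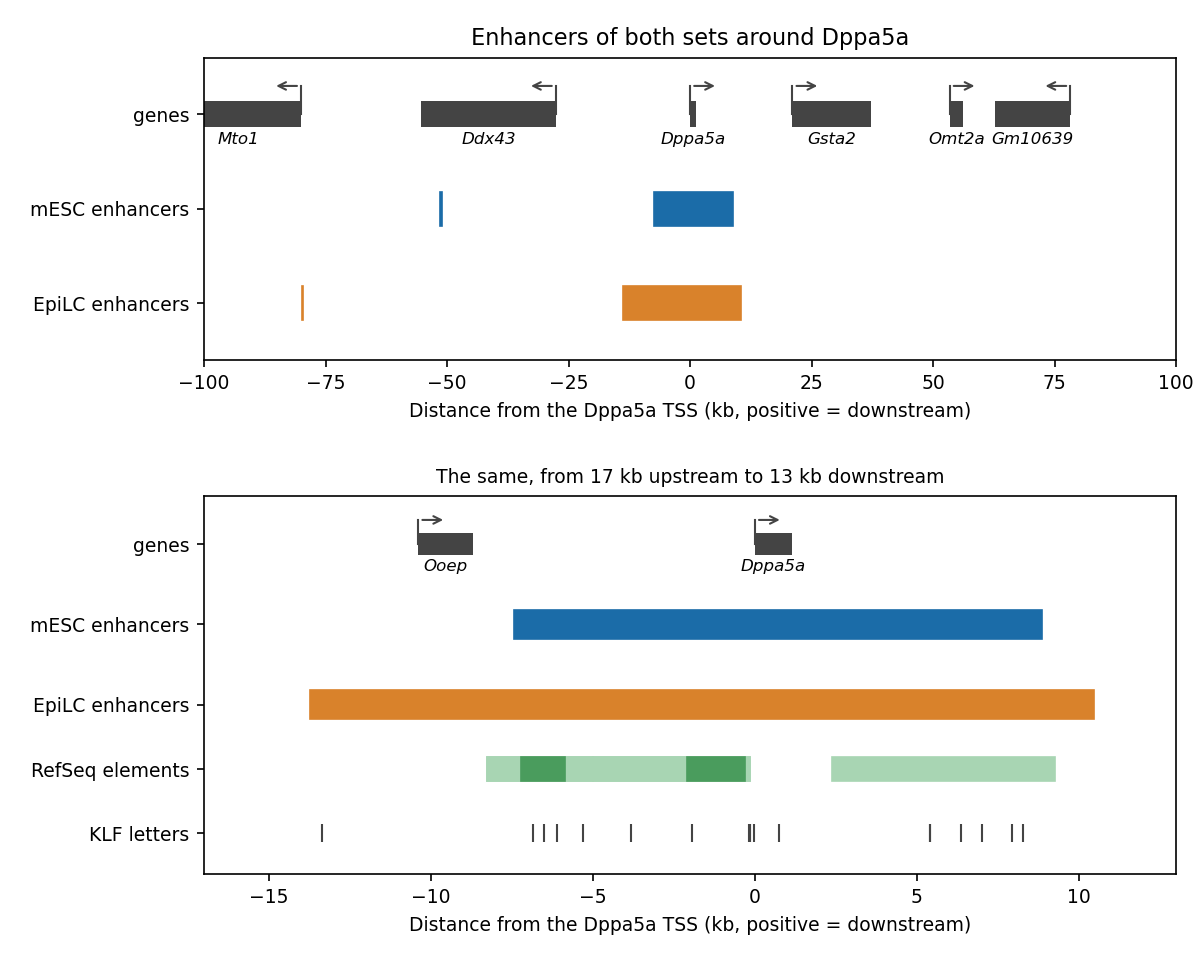
Regions around Dppa5a against distance from its TSS in kb, over the window (top, with 6 of the 9 genes drawn) and near the gene (bottom). Boxes are genes, mESC regions, EpiLC regions and RefSeq elements (pale for regulatory regions, dark for enhancers), and vertical lines are KLF matches inside the regions. The EpiLC region takes in the mESC region, Dppa5a and Ooep.

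The other regions near Dppa5a were short and unshared. The second mESC region (chr9:78419198-78419671, 474 bp) was centred at -51.235 kb from the TSS (negative is upstream), in Ddx43, a germ-line RNA helicase gene, and overlapped no EpiLC region. The second EpiLC region (chr9:78447827-78448126, 300 bp) was centred at -79.777 kb, at the promoter of Mto1, which encodes a mitochondrial tRNA-modifying enzyme, and overlapped no mESC region. Just outside the window, an EpiLC region of 7275 bp was centred at -111.69 kb, at Eef1a1, a translation elongation factor gene, and the nearest mESC region beyond it was centred 177.252 kb downstream. The gene table places 8 other TSSs within 100 kb of Dppa5a, those of Gm10639, Omt2a, Omt2b, Gsta2, Ooep, Ddx43, Cgas and Mto1. Of these only Ooep had its TSS inside a region, and only inside that of the EpiLC set.

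The sequence of Dppa5a has near copies, which bears on how reads can be placed there. The pseudogene Dppa5b (chr9:78245487-78246600) was 98.1% identical to the gene over 1118 aligned bp, and Dppa5c (chr9:78271935-78273046) 98.5% over 1116 bp. Dppa5b lay in an EpiLC region (chr9:78245452-78247334) and in no mESC region. Dppa5c lay in neither. How the source publications treated reads that match several copies is not given in the sources used here, and its part in these regions was not tested.

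The numbers of enhancers stood as follows among all genes. Each of the 3 had 2 mESC enhancers within 100 kb, and 23.3% of genes had at least as many (median 1). At least 1 mESC enhancer was found for 55.3% of genes and at least 1 EpiLC enhancer for 74.0%. With 7 EpiLC enhancers, Dppa4 and Dppa2 were matched or exceeded by 6.28% of genes (median 2). Dppa5a, with 2, was at the median and was matched or exceeded by 53.3%.

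Enhancer bases gave another order. Within 100 kb, Dppa5a had 16773 bp of mESC enhancer, and 1.40% of genes had at least that much (median 524 bp). Dppa4 and Dppa2 had 8204 bp (6.35% of genes). In the EpiLC set Dppa5a had 24500 bp (4.06% of genes, median 3000 bp) and the other two 20725 bp (6.03%). At this window Dppa5a had most bases of the 3 in both sets and, in the EpiLC set, fewest regions. The order in the mESC set turned within 200 kb, where Dppa5a had 18504 bp and Dppa4 and Dppa2 23422 bp. It also turned without the first block of the mESC table, which left 474 bp at Dppa5a and 8204 bp at the others.

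The nearest centres were also close. The nearest mESC centre lay 3124 bp from the Dppa2 TSS (3.52% of genes had one as near) and 713 bp from that of Dppa5a (0.779%). The nearest EpiLC centre lay 596 bp from Dppa4 (10.5%), 610 bp from Dppa2 (10.6%) and 1627 bp from Dppa5a (15.1%). Over all genes the median distance to an EpiLC centre was 37179 bp.

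**Figure D3:**
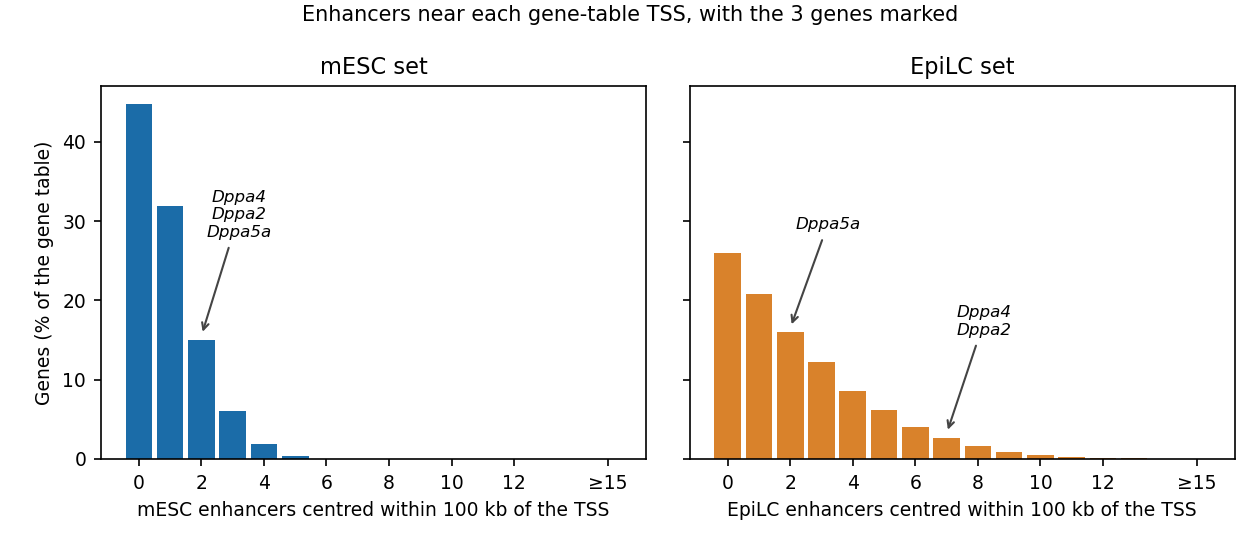
Share of the 24263 genes (vertical axis, percent) with each number of enhancers centred within 100 kb of the TSS (horizontal axis), for the mESC set (left) and the EpiLC set (right). Arrows mark the 3 genes, at 2 mESC enhancers each and at 7, 7 and 2 EpiLC enhancers.

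The pattern of counts and overlaps was not peculiar to these genes. Likeness was measured as the Euclidean distance over 4 numbers per gene, namely log2(count + 1) of the regions of each set within 100 kb and the share of each that overlapped the other set. Dppa4 and Dppa2 matched 19 other genes exactly (0.0783% of the table), the first by name being 4930432K21Rik, Adrb3 and Ankrd35. Dppa5a matched 332 genes exactly (1.37%), the first being 1600019K03Rik, 1700006H21Rik and 1700007L15Rik.

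Genes of related roles differed from one another. Of 5 developmental pluripotency associated genes, all had an mESC enhancer within 100 kb (median 2, beside 1 over all genes) and 4 had an EpiLC enhancer (median 5, beside 2). Dppa2, Dppa4 and Dppa5a are 3 of these 5 and fix the mESC median, and Dppa2 and Dppa4 count the same regions. The medians thus say little about the genes beyond the members. Dppa3, a maternal factor that protects DNA methylation in the zygote, had 5 of each, and Dppa1 had 1 mESC and 0 EpiLC enhancers. In this list, Dppa2, Dppa4 and Dppa5a were the 3 with their TSS in an mESC enhancer, and in an EpiLC enhancer too.

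Of 6 KH-domain genes of the oocyte and early embryo, all had an mESC enhancer (median 2) and 4 an EpiLC enhancer (median 1.5). The shares over all genes were 55.3% and 74.0%. Khdc3, which like Ooep encodes a subunit of the subcortical maternal complex, had 3 mESC and 6 EpiLC enhancers. Khdc1a had 2 and 1. Dppa5a alone of this list had its TSS in an enhancer of both sets.

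The genes of the 2-cell stage that Dppa2 and Dppa4 are known to activate showed few enhancers of either set. Of 17 symbols listed, 15 were found, and the symbols Zscan4e and Dub1 were not among the named intervals. None of the 15 had an mESC enhancer within 100 kb and 5 had an EpiLC enhancer, beside 55.3% and 74.0% of all genes. The medians were thus 0 and 0. Several of the 15 lie in clusters on chromosome 7, so they are not all separate loci. Usp17lc had 3 EpiLC enhancers, and Tcstv3, Tdpoz4, Usp17ld and Zscan4d had 1 each. The copies of these families share much of their sequence, and whether enhancers could be called there was not tested.

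Among 17 naive pluripotency factors, 16 had an mESC and 15 an EpiLC enhancer, beside 55.3% and 74.0% of all genes. The medians were 2 and 3. The highest totals were those of Fgf4, a growth factor of the inner cell mass (3 and 8), the homeobox factor Nanog (5 and 6) and the imprinting factor Zfp57 (3 and 7). The Kruppel-like factor Klf2 (3 and 6) tied for the next place with Lin28a and Prdm14 (2 and 7 each). The median enhancer length within 100 kb was 10339 bp of mESC and 8275 bp of EpiLC regions, against 16773 and 24500 bp at Dppa5a. Dppa4 and Dppa2, with 8204 bp, lay under the first median and, with 20725 bp, above the second.

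Among 12 germ line genes that DNA methylation silences in somatic cells, 2 had an mESC enhancer and 9 an EpiLC enhancer, with medians of 0 and 1. Over all genes these shares were 55.3% and 74.0%. Sycp3, of the synaptonemal complex, had 1 and 3, Piwil2, of the piRNA pathway, 1 and 2, Tex19.1 0 and 3, and Mael 0 and 2. In this list no TSS lay in an mESC enhancer, beside 1.16% of all TSSs.

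**Figure D4:**
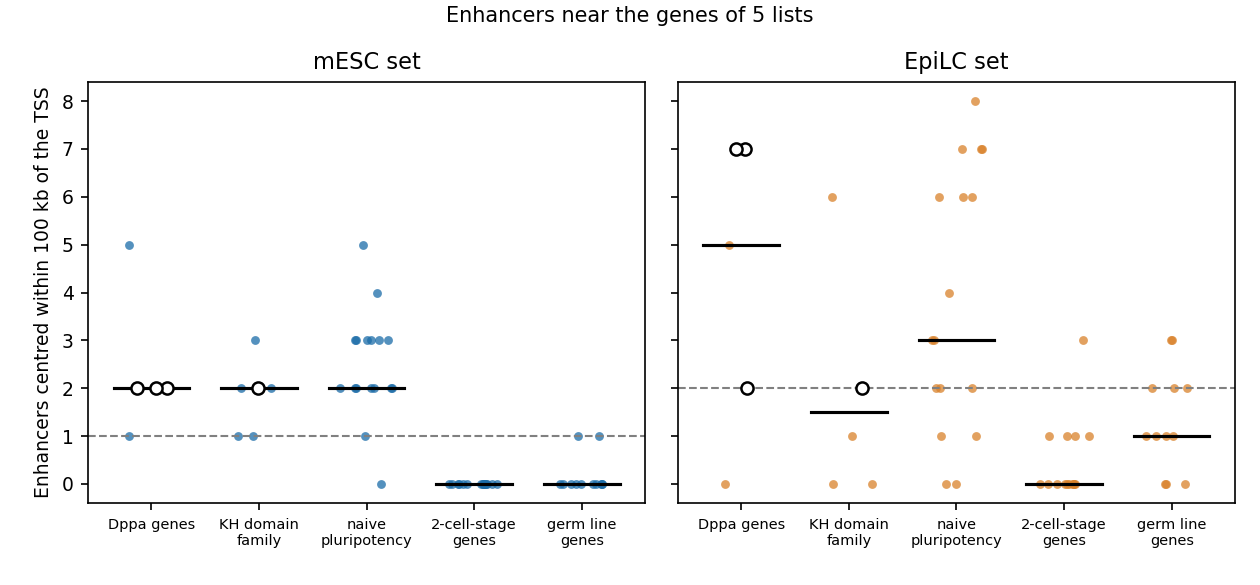
Enhancers centred within 100 kb of the TSS (vertical axis, number) for the genes of 5 lists (horizontal axis), in the mESC set (left) and the EpiLC set (right). Each point is a gene, spread sideways for visibility, open circles are Dppa2, Dppa4 and Dppa5a, black lines are list medians and dashed lines the medians of all genes, 1 and 2.

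Motif letters were counted on both strands of the regions as exact matches, and a match describes letters, not a bound site. The letters were ATGCAAAT (octamer of POU factors), TGCATNACA (core of the OCT-SOX composite), ACAATGG (SOX), GGGNGTGG (KLF), TCAAGGTCA (ESRRB), TTCCNGGAA (STAT), TAATCC (OTX and GSC type homeodomain), CCGGAAG (ETS), TGACCTTTG (nuclear receptor) and CAGCTG (E-box), where N is any base. Ends of different motifs can share letters, as those of the octamer and the OCT-SOX core or of the ESRRB and nuclear receptor motifs, and matches that overlapped were each counted. In the 300 bp at the centres, the KLF letters were found in 2 of the 4 mESC regions, both at Dppa5a, beside 15.4% of the whole set. They were found in 1 of the 9 EpiLC regions, that at the Dppa4 TSS, beside 13.4%. TAATCC was found in 1 of 4 (13.2%) and 4 of 9 (12.0%), and the E-box in 1 of 4 (16.0%) and 0 of 9 (18.3%). The other 7 motifs were found in none of these central windows, at set shares of 0.841% to 10.9% for mESC and 0.537% to 6.99% for EpiLC regions.

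Over whole regions, the KLF letters were denser at both loci than in the sets. The mESC regions at Dppa4 and Dppa2 held 0.975 KLF matches per kb (8 matches) and those at Dppa5a 1.07 (18), against 0.495 in the whole mESC set. The EpiLC regions held 0.724 (15) and 0.735 (18) per kb, against 0.480. At least 1 match was found in 4 of the 4 mESC regions, beside 36.7% of the whole set, and in 4 of the 9 EpiLC regions, beside 51.0%. These shares grow with the length of a region. With each position counted once, there were 16 KLF matches at Dppa4 and Dppa2, of which 7 lay in both sets, and 19 at Dppa5a, of which 17 did. The 2 downstream of Dppa5a printed above are among them.

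TAATCC followed the same pattern. It was found at 0.975 per kb (8) in the mESC regions of Dppa4 and Dppa2 and at 0.954 (16) in those of Dppa5a, against 0.475 in the set. In the EpiLC regions it was found at 0.676 (14) and 1.02 (25) per kb, against 0.469. The E-box did not follow it. In the mESC regions the E-box letters were found at 0.609 per kb (5) at Dppa4 and Dppa2 and at 0.358 (6) at Dppa5a, against 0.527. In the EpiLC regions they were found at 0.386 (8) and 0.449 (11) per kb, against 0.565. Some TAATCC and KLF matches lay close together on the same strand. Examples start at chr16:48283369 and chr16:48283388, and at chr9:78372009 and chr9:78372028. The densities of TAATCC and KLF are therefore not separate results, and the part of repeats in these pairs was not tested.

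Several of these regions were rich in repeats. Bases that the assembly soft-masks as repeats made up 48.0% of the mESC region at Dppa2 and 39.5% of that at Dppa5a, against a set median of 17.6%. In the EpiLC regions at Dppa4, at the Dppa2 TSS and at Dppa5a they made up 46.6%, 46.5% and 34.8%, against a set median of 19.7%. The 34.8% at Dppa5a was reached by 21.8% of the EpiLC set. Over all bases of each set, to which long regions add more, the masked shares were 24.3% (mESC) and 26.9% (EpiLC). Masked shares differed between the regions. The EpiLC region 6.534 kb upstream of Dppa4 was 47.0% masked, and the mESC region at the Dppa4 TSS was 16.3% masked. Of the KLF matches, 10 of 16 at Dppa4 and Dppa2 and 12 of 19 at Dppa5a lay wholly in masked bases, beside 54.7% of KLF matches in the mESC set and 51.3% in the EpiLC set. Of the TAATCC matches, 11 of 16 and 14 of 25 did, beside 39.9% and 41.8%. The part of repeats in these densities was not tested. GC content lay between 39.5% and 45.8% in the 13 regions, with set medians of 45.0% and 47.7%.

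**Figure D5:**
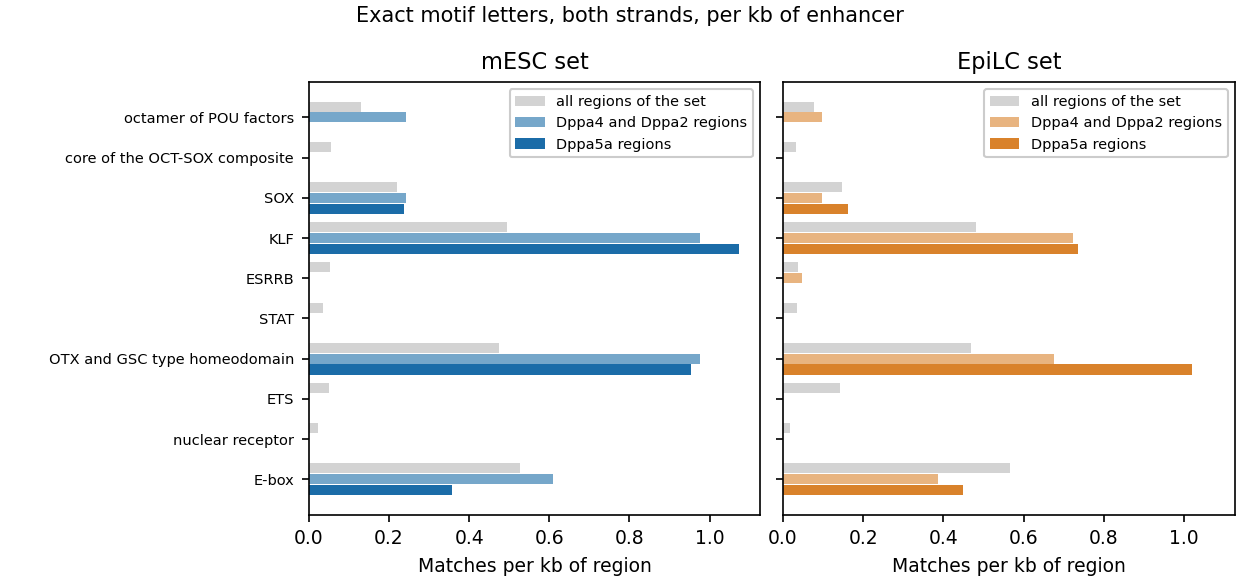
Exact motif matches per kb of region (horizontal axis) for 10 motifs (vertical axis), in the mESC set (left) and the EpiLC set (right). Grey bars are all regions of the set, pale bars those near Dppa4 and Dppa2 and dark bars those near Dppa5a, and the KLF and OTX-type bars of both loci exceed the grey ones.

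The rarer letters were few. Both octamers near the 3 genes were those printed above, 201 bp apart in the stretch upstream of Dppa2 that both sets share. Dppa5a had none. Each octamer sits in the same run of 15 bases, actaATGCAAATtta, and all 186 bp between the runs are soft-masked. One of the octamers is masked too. With both copies of the run counted, the octamers at Dppa4 and Dppa2 came to 0.244 per kb of mESC region, against 0.129 in the set. Per kb of EpiLC region they came to 0.0965, against 0.0778. Both densities rest on these 2 matches, and whether the 2 copies of the run have a common origin was not tested. The ESRRB letters were found once, in the EpiLC region upstream of Dppa2 and outside the mESC region. This single match is 0.0483 per kb of the EpiLC regions at Dppa4 and Dppa2, against 0.0373 in the set. SOX letters were found 2 times at Dppa4 and Dppa2 and 4 times at Dppa5a, all in regions of both sets. Their densities were near those of the sets, except for a lower one in the EpiLC regions of Dppa4 and Dppa2, on 2 matches. In the mESC regions they were 0.244 and 0.238 per kb, against 0.220. In the EpiLC regions they were 0.0965 and 0.163 per kb, against 0.147. Letters of the OCT-SOX core, STAT, ETS and nuclear receptor motifs were not found in these 13 regions, where the mESC set held 0.0227 to 0.0551 matches per kb. In the EpiLC set the ETS letters were found at 0.142 per kb and the other 3 at 0.0164 to 0.0337.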

How the data were processed

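The deposited tables give regions only, with chromosome, start, end and strand and 0 columns with a value per library, so the depth is unknown and the planned comparison of signal between genotypes had no values to run on. Per the series' design text, the authors took the mESC and EpiLC enhancers from earlier publications, converted them to mm10, and reused a non-redundant UCSC gene set. Per the submitters' processing notes, bedtools 2.29.2, Bowtie2 2.3.4.1 and Trimmomatic 0.38 were used with the builds mm10 and dm6, at settings not given in the sources used here.

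Table starts were taken to count from 0, since start plus 1 with the end equals a RefSeq gene in 12030 gene rows and the start as written in 329. For the enhancers this could not be settled and leaves 1 bp of doubt. Of 24402 gene rows, 120 duplicates and 19 rows off the chromosomes were dropped. Names came from RefSeq (GRCm38.p6) or GENCODE M21 by equal ends or, where none matched, by a ratio of shared to joint length of 0.8 or more (Dppa5a among them), and 23798 rows received one. The TSS is the 5′ end of the gene interval. Promoter means within 1 kb of a GENCODE TSS. Counting used Python 3.11.15, numpy 2.4.6, pandas 2.3.3 and pysam 0.24.0, was checked on simulated regions, and involved no statistical test and no replicates.

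The members and gene lists were chosen with earlier results of these data known. Named genes were the 3 members, every gene with its TSS in a member window, the members with most enhancers (up to 4 a list) and the 3 genes nearest in counts and overlaps. The alternatives were windows of 20, 50 and 200 kb, any overlap with the window, nearest TSS only, mESC enhancers without the first block of rows, GENCODE TSSs, no promoter-centred regions, joined neighbours, stricter overlap and wider motif windows.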

Additional observations from a re-analysis of the deposited data

How the results depend on the processing

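Of 135 values recomputed for the 3 genes under another setting, 76 stayed within 1.5 times the reported count, length, rank or distance (for overlap shares, within the exact 95% binomial interval) and 59 did not. Those intervals are wide, since they rest on 2 or 7 regions a gene, and do not show that a share is stable. Of the 40 motif counts 27 stayed within 1.5 times. Values are given for Dppa4, Dppa2 and Dppa5a in that order. The mESC counts of 2 became 1, 1 and 1 within 20 kb, 1 for Dppa5a within 50 kb, and 5, 5 and 4 within 200 kb. They were 1, 1 and 1 with each region given to its nearest TSS, and again without promoter-centred regions. The EpiLC counts of 7, 7 and 2 became 3, 2 and 1 within 20 kb, 4 for Dppa2 and 1 for Dppa5a within 50 kb, and 11, 13 and 9 within 200 kb. They were 4, 2 and 1 with each region given to its nearest TSS, and 1 for Dppa5a without promoter-centred regions. Without the first block of the mESC table, Dppa5a kept 1 mESC enhancer of 474 bp, matched or exceeded by 54.3% of genes, and its overlap shares fell from 50% to 0% in both sets. With every region cut to 500 bp at its centre, the overlap share was 0% for all 3 genes in both sets, beside 26.1% of all mESC and 14.1% of all EpiLC regions. Under that setting the shares of the 3 genes thus lay below those of the sets, where all 6 lay above them by 1 bp of overlap. With an overlap of at least 50% of both regions, the mESC shares were 50%, 50% and 50% and the EpiLC shares 14.3%, 14.3% and 50%. Within 50 kb the shares of Dppa5a were 100% in both sets, and the EpiLC share of Dppa2 was 75%. Within 200 kb the EpiLC share of Dppa5a was 22.2%. Within 200 kb the mESC lengths of Dppa4 and Dppa2 rose to 23422 bp, above the 18504 bp of Dppa5a, and the EpiLC lengths to 31700, 35650 and 49261 bp. The percent of genes with at least as many mESC enhancers became 8.66%, 8.66% and 35.7% within 50 kb and 6.53%, 6.53% and 14.3% within 200 kb. For the EpiLC set it became 1.79% for Dppa4 within 50 kb, and 3.49% for Dppa2 and 14.1% for Dppa5a within 200 kb. From the nearest edge, all 6 distances were 0 bp. From the GENCODE TSS, the nearest EpiLC centre to Dppa2 was at 394 bp. Apart from the smaller number of regions that some settings leave, the cause of these moves was not tested. No paired analysis was possible because the tables hold no value per library. For the same reason the signal of each antibody was not run.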
